A study of Homo sapiens with 21 samples.

Results

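HK-2 is an immortalised human cell line derived from the epithelium of the kidney proximal tubule, the nephron segment that reclaims most filtered solutes. The values below are the mature microRNAs (miRNAs) of HK-2 cells that received only the vehicle. They come from 4 of the 21 samples of a series that set cyclosporine A against vehicle by mRNA, miRNA and AGO2 PAR-CLIP sequencing. These 4 libraries were chosen by their labels (vehicle miRNA libraries 1 to 4), with no use of measured values, and no treated sample enters any value here. Each came from unedited HK-2 cells at about 80% confluency in serum-free keratinocyte medium with bovine pituitary extract (0.05 mg/mL) and epidermal growth factor (5 ng/mL). The cells had been kept for 48 h in 0.1% ethanol. All libraries thus share 1 line, 1 medium and 1 vehicle, and the labels do not say whether they were separate cultures, so the spread between them may be technical. Tubule tissue and other tubule lines were not analysed here.

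miRNAs are short RNAs cut from hairpin precursors by Drosha and Dicer and loaded into Argonaute proteins. Bases 2 to 8 from the 5′ end, the seed, pair with target messages, so miRNAs with the same seed form a family with overlapping targets. A hairpin yields a 5p and a 3p strand, of which one is usually kept, and hairpins that lie close together are often made from one primary transcript. In kidney epithelium, miR-192, miR-194 and miR-204 are known as abundant tubule miRNAs, and the miR-200 family marks epithelial cells.

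The sequences of the leading miRNAs show which of them share a seed, given in capitals. They are from RefSeq (GRCh38.p14), in which 2281 of the 2586 counted names were found. Those names held 97.4% to 97.8% of the counts of a library.
miR-21-5p: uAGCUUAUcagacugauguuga
miR-30a-5p: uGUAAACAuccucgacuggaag
miR-30e-5p: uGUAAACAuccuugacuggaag
miR-30c-5p: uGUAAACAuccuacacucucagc
let-7i-5p: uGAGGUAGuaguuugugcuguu
let-7g-5p: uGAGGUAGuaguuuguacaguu
let-7f-5p: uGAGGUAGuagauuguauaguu
let-7a-5p: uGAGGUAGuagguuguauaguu
miR-26a-5p: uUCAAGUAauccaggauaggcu
miR-10a-5p: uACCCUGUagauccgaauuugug
miR-205-5p: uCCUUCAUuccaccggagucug
miR-222-3p: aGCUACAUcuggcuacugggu
miR-221-3p: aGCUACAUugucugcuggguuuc

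In this build miR-21-5p lies on the plus strand at chr17:59841273-59841294, and miR-30a-5p on the minus strand at chr6:71403595-71403616. let-7i-5p lies at chr12:62603691-62603712 on the plus strand, miR-10a-5p at chr17:48579904-48579926 on the minus strand, within the HOXB gene cluster, and miR-205-5p at chr1:209432166-209432187 on the plus strand. miR-26a-5p, let-7a-5p and let-7f-5p each have more than 1 hairpin in the genome, so their counts have no single locus. let-7a-5p and let-7f-5p differ at 1 of 22 bases, as do miR-30a-5p and miR-30e-5p. How the authors' counting shared reads between such near-identical miRNAs is not given in the sources used here, and the split between them is uncertain.

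The libraries held 7888220, 6664231, 6744824 and 7639300 counts in libraries 1 to 4. Levels are in CPM, the count divided by the library's miRNA total and multiplied by 1000000, and are given as mean ± SD over the 4 libraries, so every level is a share of a fixed total. A miRNA counts as detected when it had at least 1 CPM in every library. By that rule 462 of 2586 miRNAs (17.9%) were detected. A further 944 had a count in at least 1 library, and 1180 (45.6%) had none in any. For a miRNA with no count, 3 counts over the 4 libraries set an upper limit of 0.104 CPM, which covers counting error only. The detected miRNAs held 99.97% to 99.98% of the counts of a library. The mean level reached 10 CPM for 272 miRNAs, 100 CPM for 137, 1000 CPM for 51 and 10000 CPM for 8.

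The number in a miRNA name follows roughly the order of annotation. Of 940 names numbered below 1000, 357 (37.98%) were detected and 322 (34.3%) had no count. Of 1646 names numbered 1000 or higher, 105 (6.38%) were detected and 858 (52.1%) had no count. The higher-numbered names together took 0.337% ± 0.0321 of the counts (SD, n = 4).

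A single miRNA, miR-21-5p, took most of the reads. It is a miRNA raised in injured epithelium and in many cancers. It stood at 607193, 547150, 587905 and 602126 CPM in libraries 1 to 4, lowest in library 2. Its ratio to the next miRNA, miR-30a-5p, was 7.05 ± 0.899 (SD, n = 4). Among the counts that were not miR-21-5p, miR-30a-5p made 20.2% ± 0.971. The level of miR-30a-5p, which belongs to a family long known as abundant in kidney epithelium, was 74862, 92543, 82543 and 85157 CPM.

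Next came let-7i-5p, of the growth-restraining let-7 family, with 36891, 43325, 40619 and 38436 CPM. miR-26a-5p, a miRNA expressed in most tissues, followed with 22529, 25025, 23177 and 23553 CPM. No value of let-7i-5p was within the range of miR-26a-5p, and the 4 leading miRNAs kept their order in every library. Below them the order was less firm. miR-10a-5p, encoded in the HOXB cluster, had 19578, 18928, 19183 and 17892 CPM, and let-7f-5p had 16257, 19709, 17835 and 18119 CPM. These ranges overlapped.

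let-7a-5p averaged 14240 ± 480 CPM, miR-30d-5p 12951 ± 994, miR-205-5p 9523 ± 1480 and let-7g-5p 8976 ± 1586 (SD, n = 4 each). The miRNA at rank 11 was miR-222-3p, at 8660 ± 739 CPM. From let-7a-5p down to miR-222-3p the range of each neighbour overlapped the next, so that 5 of the 10 neighbouring pairs down to rank 11 had overlapping ranges. Within every library, however, let-7a-5p stood above miR-30d-5p, miR-30d-5p above miR-205-5p and miR-205-5p above let-7g-5p. miR-205-5p, a miRNA of stratified and secretory epithelia, was highest in library 2 at 11670 CPM, against 8293 to 9172 CPM in the other libraries.

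**Figure D1:**
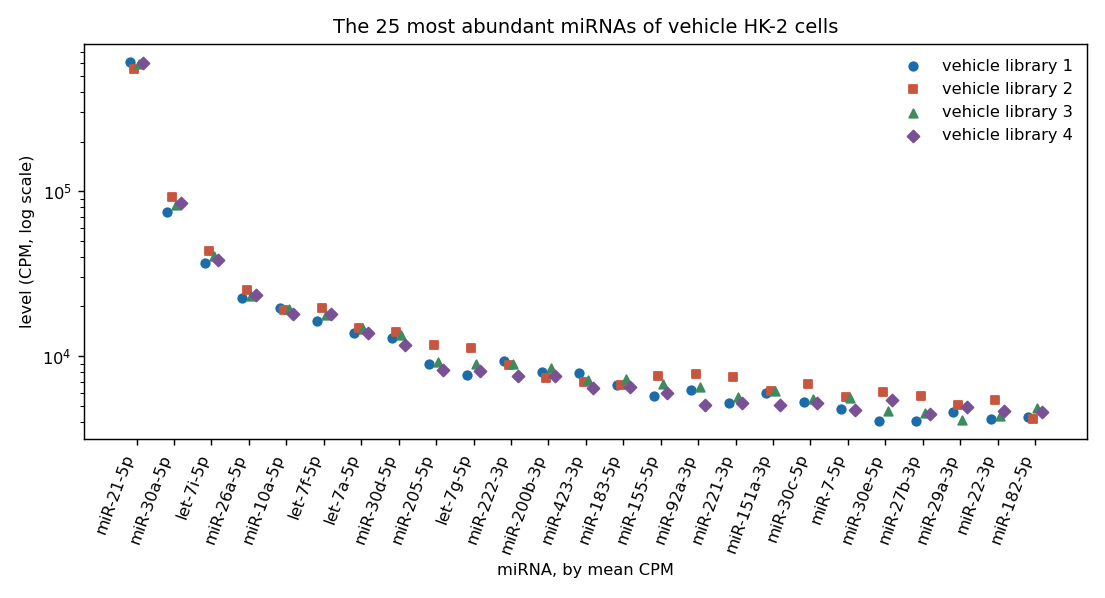
Level in CPM (log axis) of the 25 most abundant miRNAs in each of the 4 vehicle libraries, ordered by mean level. miR-21-5p lies between 547150 and 607193 CPM, above miR-30a-5p at 74862 to 92543 CPM, and the points of neighbouring miRNAs overlap from rank 7 to rank 11.

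The counts were concentrated. The 5 most abundant miRNAs held 75.2% ± 1.77 of a library, the 10 most abundant 81.6% ± 1.24, the 20 most abundant 88.2% ± 0.81 and the 50 most abundant 96.2% ± 0.183 (SD, n = 4). It took 24 miRNAs to reach 90% of the counts, 41 to reach 95% and 106 to reach 99%. Of the 10 highest by mean, 9 were among the 10 highest of every library.

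Grouping mature sequences by seed gave a similar picture in fewer units. The 8 leading seed families held 84.4% ± 0.859 of the counts (SD, n = 4), and 330 of 1854 families had a detected member. Only names found in RefSeq were grouped, so a family sum leaves out any member without an entry. The miR-21 family, with seed AGCUUAU, was almost wholly miR-21-5p. Its other member, miR-590-5p, averaged 0.60 CPM. By the names found, the family with seed GUAAACA held 8.41%, 10.5%, 9.27% and 9.57% of libraries 1 to 4. That sum counts miR-30a-5p, miR-30c-5p and miR-30e-5p, and miR-30a-5p was 88.6% of it. With miR-30b-5p and miR-30d-5p, which had no RefSeq entry, added by name, the miR-30 family reached 10.8% ± 0.938. Within it, miR-30d-5p was the next member, and the ratio of miR-30a-5p to miR-30d-5p was 6.49 ± 0.642. miR-30c-5p had 5686 ± 760 CPM, miR-30e-5p 5045 ± 894 CPM and miR-30b-5p 325 ± 175 CPM.

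The let-7 family, with seed GAGGUAG, held 7.96%, 9.41%, 8.67% and 8.28% of libraries 1 to 4, and 9 of its 11 members were detected. let-7i-5p made 46.4% of the family. let-7f-5p, let-7a-5p and let-7g-5p followed, then let-7b-5p at 1625 ± 240 CPM, let-7e-5p at 1339 ± 148 CPM and let-7d-5p at 1001 ± 121 CPM. miR-98-5p had 683 ± 40.6 CPM and let-7c-5p 151 ± 9.9 CPM. The lead of let-7i-5p over let-7a-5p, which differ at 4 of 22 bases, was present in every library.

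Smaller families came next. The seed UCAAGUA held 2.47% ± 0.118 of the counts, 95.3% of it in miR-26a-5p. The seed ACCCUGU held 1.89% ± 0.072, a sum that counts miR-10a-5p and leaves out miR-10b-5p, whose name was not found in RefSeq. The seed GCUACAU, that of miR-222-3p and miR-221-3p, held 1.45% ± 0.143. This pair is known for repressing the cell cycle inhibitor CDKN1B. The seed AUUGCAC of miR-92a-3p and miR-25-3p held 1.02% ± 0.176, and CCUUCAU of miR-205-5p 0.952% ± 0.148. Just outside the leading 8, the seed AAUACUG of miR-200b-3p, miR-429 and miR-200c-3p held 0.895% ± 0.0387, and its range overlapped that of CCUUCAU.

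**Figure D2:**
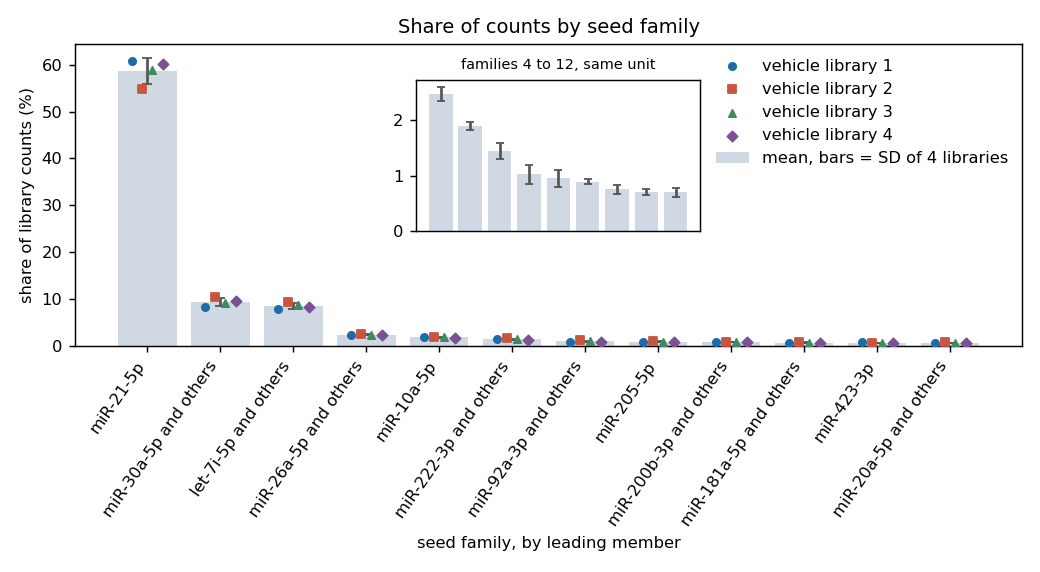
Share of library counts (%) of the 12 leading seed families, named by the leading member, with bars for the mean, error bars for the SD of 4 libraries and points for each library; the inset repeats families 4 to 12. Only names found in RefSeq are counted, which leaves out miR-30b-5p, miR-30d-5p and miR-10b-5p. The miR-21-5p family holds 54.7% to 60.7%, the miR-30a-5p family 8.41% to 10.5% and the let-7i-5p family 7.96% to 9.41%.

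Hairpins no more than 10 kb apart on one strand were joined into clusters by their RefSeq positions, which gave 94 clusters with 339 of 1772 located hairpins. miRNAs whose hairpins, 1 or more, all lay outside these clusters held 83.1% ± 1.10 of the counts. miR-21-5p and, at this distance, miR-30a-5p were among them. This split depends on the distance, since MIR30A lies 26.5 kb from MIR30C2 on the same strand. Joined within 50 kb, MIR30C2/MIR30A held 8.73% ± 0.742 and led all clusters. The 94 clusters held 8.65% ± 0.484. Another 5.75% ± 0.463 belonged to 30 mature miRNAs that were assigned to none, such as let-7a-5p. Their hairpins lay in more than 1 cluster, lay both inside and outside one, or had no single position. Names not found in RefSeq, miR-30b-5p and miR-30d-5p among them, entered none of these sums.

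Within 10 kb, the leading cluster was MIR221/MIR222 on chromosome X, which came after MIR30C2/MIR30A within 50 kb. It had 1.45%, 1.63%, 1.45% and 1.28% of libraries 1 to 4. The ratio of miR-222-3p to miR-221-3p was 1.51 ± 0.245. MIR200B/MIR200A/MIR429 on chromosome 1, which encodes epithelial miRNAs that hold down the transcription factors ZEB1 and ZEB2, had 1.31% ± 0.0267. It was the most even of the 8 leading clusters, with a coefficient of variation (SD over mean) of 2.04%. MIR182/MIR96/MIR183 on chromosome 7, best known from sensory organs and also common in epithelial cell lines, had 1.19% ± 0.0537, led by miR-183-5p at 6796 ± 322 CPM and miR-182-5p at 4463 ± 307 CPM.

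The other 5 leading clusters each held close to 0.5%. MIR30E/MIR30C1 held 0.529% ± 0.0899, MIR25/MIR93/MIR106B 0.513% ± 0.108 and MIR99B/MIRLET7E/MIR125A 0.499% ± 0.0688. MIR23B/MIR27B/MIR24-1 held 0.492% ± 0.0744, and the growth-promoting MIR17 to MIR92A1 cluster 0.489% ± 0.0383. The ranges of those 5 over the libraries overlapped. Their sums leave out the mature miRNAs that were assigned to no cluster. Among the latter were miR-30c-5p (from MIR30C1) at 5686 CPM and miR-24-3p (from MIR24-1) at 3710 CPM. So was miR-92a-3p (from MIR92A1), which made 62.5% of the seed AUUGCAC. The order of the clusters holds for the assigned miRNAs only. Hairpins of names not found in RefSeq, such as miR-30d-5p at 12951 CPM, were not ranked and could change it. Members of one cluster could differ widely in level. miR-27b-3p exceeded miR-23b-3p by a ratio of 22.6 ± 1.20, and at the paralogous locus miR-27a-3p exceeded miR-23a-3p by 7.55 ± 0.995. In the MIR17 cluster miR-20a-5p exceeded miR-17-5p by 2.80 ± 0.297. Ratios between different miRNAs also carry the ligation preferences of small RNA library kits, which were not measured here.

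A pair of large imprinted clusters was low in summed level. The placental cluster on chromosome 19, with 46 hairpins and 56 assigned mature miRNAs, had no detected member. No count was found for 48 of them, and the rest summed to 0.65 ± 0.261 CPM (SD, n = 4). The cluster on chromosome 14 that starts at MIR379, maternally expressed in many embryonic and neural tissues, had 42 hairpins and 73 mature miRNAs. Of these, 7 were detected and 32 had no count, and their sum was 42.6 ± 5.06 CPM. Over all 2586 miRNAs, 17.9% were detected and 45.6% had no count. The 32 of 73 without a count were thus near the share over all miRNAs, while the 48 of 56 on chromosome 19 were above it.

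The arms of a hairpin were compared within each library as the log2 ratio of 5p to 3p counts after 0.5 was added to each. The 4 hairpins printed here, with mature arms in capitals, stand for the patterns seen. miR-30a kept mostly its 5p arm and miR-222 its 3p arm, and miR-361 and miR-106b kept both.
miR-30a: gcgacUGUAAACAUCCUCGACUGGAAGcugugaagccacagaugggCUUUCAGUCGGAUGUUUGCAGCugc
miR-222: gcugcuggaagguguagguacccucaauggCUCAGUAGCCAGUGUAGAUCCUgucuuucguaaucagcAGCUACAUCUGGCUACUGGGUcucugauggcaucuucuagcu
miR-361: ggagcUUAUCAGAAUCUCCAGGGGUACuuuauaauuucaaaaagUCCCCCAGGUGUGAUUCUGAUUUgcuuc
miR-106b: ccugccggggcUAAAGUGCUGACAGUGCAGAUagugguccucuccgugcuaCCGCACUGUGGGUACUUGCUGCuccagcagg

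Arms were paired only where both had the same name, which left out abundant miRNAs such as miR-26a-5p, let-7f-5p and miR-30c-5p. This gave 838 hairpin names, of which 250 had a mean of at least 10 counts over both arms. The 5p arm was higher in every library for 131 of them and the 3p arm for 105, and 14 changed side between libraries. Among 93 hairpins with a mean of at least 1000 counts, 58 favoured 5p and 33 favoured 3p in every library. The median share of the lesser arm among these was 0.68%, and it was under 1% for 52. Weighted by counts the balance was less even, since 5p arms held 90.05% ± 0.677 of the counts of all names with an arm suffix, and 76.0% ± 0.751 with miR-21 left out (SD, n = 4).

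For miR-21 the log2 ratio of 5p to 3p was 10.15, 9.93, 10.22 and 9.83 in libraries 1 to 4. Its 3p arm, at 562 ± 71.8 CPM, still ranked 71 of 2586. miR-30a had a smaller ratio of 4.80 ± 0.16 on the log2 scale, and its 3p arm stood at 3012 ± 294 CPM. The largest ratio among the 10 paired hairpins with the most counts was that of let-7g, at 14.24 ± 0.62. Its 3p arm averaged 0.413 CPM, so the value depends on the added 0.5. The ratio was 11.52 ± 0.56 for miR-205 and 11.20 ± 0.37 for let-7i. miR-30d had 8.75 ± 0.21, miR-10a 6.81 ± 0.17 and let-7a 6.25 ± 0.21. Of these 10, miR-222 and miR-200b favoured the 3p arm, with -10.05 ± 0.25 and -7.65 ± 0.22.

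Only 5 of the 93 hairpins had arms within 1 of each other on the log2 scale. miR-361 had -0.19, -0.03, -0.34 and 0.02 in libraries 1 to 4, so that neither arm led throughout. miR-106b averaged -0.34 ± 0.25, miR-140 -0.85 ± 0.19, miR-28 -0.91 ± 0.17 and miR-374a 0.87 ± 0.16. The 3p arm of miR-140 and of miR-28 led in every library, and the 5p arm of miR-374a did.

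**Figure D3:**
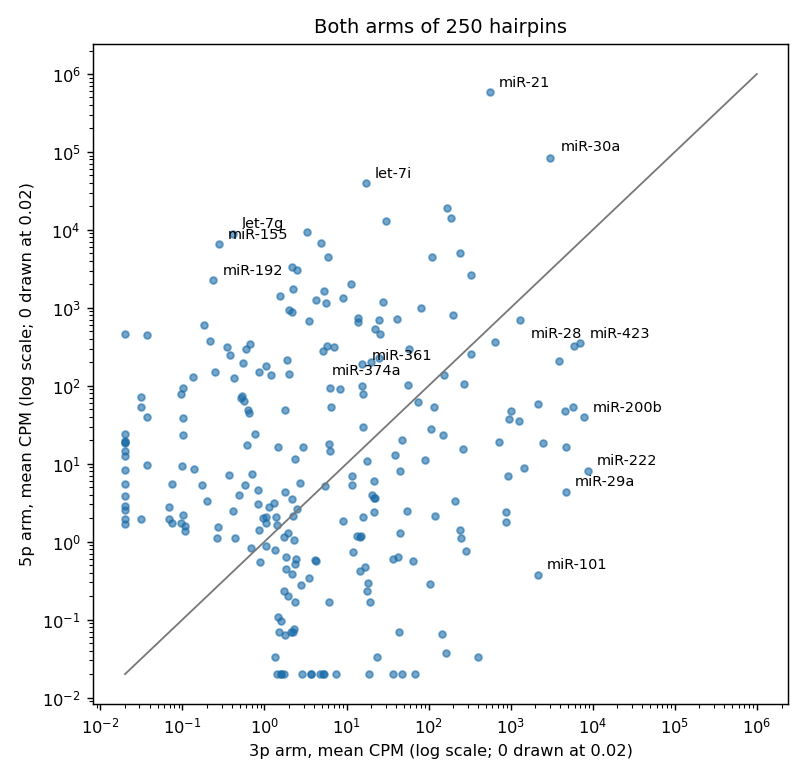
Mean CPM of the 5p arm (vertical) against the 3p arm (horizontal) for the 250 hairpins with both arms under one name. Both axes are logarithmic, with 0 drawn at 0.02 and a line where both arms are equal. Most points lie far from the line; miR-361 and miR-28 lie near it.

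miRNAs on a list drawn up for kidney tubule were present unevenly, and not all of them are typical of tubule. The sequences of the paired relatives show the shared seeds and the few bases by which they differ.
miR-192-5p: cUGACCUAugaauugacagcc
miR-215-5p: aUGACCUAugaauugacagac
miR-204-5p: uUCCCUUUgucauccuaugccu
miR-211-5p: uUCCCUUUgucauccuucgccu

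Over all 2586 miRNAs 17.9% were detected and 45.6% had no count, and the list counts from here on stand beside those shares. Of 10 miRNAs on the kidney tubule list, which includes relatives such as miR-211-5p, 3 were detected and 1 had no count. The list summed to 2568, 2377, 2359 and 2432 CPM in libraries 1 to 4. Nearly all of that was miR-192-5p, a miRNA abundant in renal cortex, with 2427, 2179, 2208 and 2259 CPM. miR-194-5p, which has a hairpin beside that of miR-192 on chromosome 11 and another beside that of miR-215 on chromosome 1, had 150 ± 23.9 CPM, and the ratio of miR-192-5p to it was 15.5 ± 2.96. miR-215-5p, which differs from miR-192-5p at 2 of 21 bases, had 14.5 ± 1.99 CPM. miR-204-5p, high in kidney and retinal pigment epithelium, had 3 counts in all, which gave 0, 0.15, 0.297 and 0 CPM in libraries 1 to 4. Its relative miR-211-5p had none. miR-217, listed but not among the tubule miRNAs named at the start, had 0.199 ± 0.166 CPM. Of the tubule miRNAs named at the start, miR-192-5p and miR-194-5p were thus detected, and miR-204-5p was near 0.

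The epithelial list was detected in full, with 7 of 7 members and a sum of 22416 ± 1431 CPM. Most of it was miR-205-5p, miR-200b-3p at 7839 ± 478 CPM, miR-200a-3p at 3870 ± 217.4 CPM and miR-429 at 1095 ± 152 CPM. miR-203a-3p, an epidermal miRNA, had 68.0 ± 6.84 CPM. The miR-200 family comes from 2 loci, and only the one on chromosome 1 was strong.
miR-200b-3p: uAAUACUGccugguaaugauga
miR-200c-3p: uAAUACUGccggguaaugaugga
miR-200a-3p: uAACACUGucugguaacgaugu
miR-141-3p: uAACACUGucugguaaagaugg

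From the locus on chromosome 12, miR-200c-3p had 21.2, 19.5, 18.7 and 16.1 CPM and miR-141-3p 1.77, 1.35, 1.78 and 1.44 CPM in libraries 1 to 4. Within a library, miR-200b-3p exceeded miR-200c-3p by 419 ± 49.0 times and miR-200a-3p exceeded miR-141-3p by 2492 ± 490 times (SD, n = 4). Each of these pairs shares its seed and differs at 2 of 22 compared bases. Reads of the abundant member with an error could thus have been counted for the scarce one, which was not tested.

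The HOX clusters were represented by 8 detected miRNAs of 10, with a sum of 22483 ± 805 CPM. miR-10a-5p led, and the ratio of miR-10a-5p to miR-10b-5p, encoded in the HOXD cluster, was 14.8 ± 0.787. miR-10b-5p had 1278 ± 68.0 CPM, miR-196b-5p of the HOXA cluster 1398 ± 256 CPM and miR-196a-5p of the HOXB and HOXC clusters 460 ± 61.4 CPM. miR-615-3p, from the HOXC cluster, had 249 ± 66.9 CPM.

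Mesenchymal and smooth muscle miRNAs were low in summed level, at 46.8 ± 1.87 CPM. Of 10, 2 were detected, near the 17.9% over all miRNAs, and 2 had no count, against 45.6% over all. miR-143-3p supplied 43.3 ± 1.92 CPM, while miR-145-5p, its neighbour on chromosome 5 and a marker of contractile smooth muscle, had 0.314 ± 0.286 CPM. miR-199a-5p had 1.40 ± 0.327 CPM and miR-199a-3p 0.853 ± 0.410 CPM. miR-214-3p and miR-214-5p, made with miR-199a in fibroblasts, had no count. miR-126-3p, the miRNA best known from endothelial cells, was at 1001, 1023, 959 and 1004 CPM, and its other arm miR-126-5p at 46.9 ± 8.03 CPM, so both listed endothelial miRNAs were detected.

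Of 11 blood cell miRNAs, 2 were detected, near the 17.9% over all miRNAs. Both came from the miR-142 hairpin of haematopoietic cells. miR-142-3p had 104, 123, 103 and 135 CPM and miR-142-5p 53.6 ± 7.68 CPM. Of the others, 6 had no count, among them the myeloid miRNAs miR-223-3p and miR-223-5p and the lymphoid miRNAs miR-150-5p and miR-150-3p. The red cell miRNAs miR-451a and miR-486-5p had 0.130 ± 0.185 and 0.279 ± 0.164 CPM. The defining markers of myeloid, lymphoid and red cells were thus at or near 0 where miR-142 was not. In such bulk samples few cells with much of a miRNA and many cells with little of it cannot be told apart.

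Among 7 striated muscle miRNAs, 3 were detected. miR-1-3p had 309, 539, 381 and 388 CPM and miR-133a-3p, from the same transcripts, 39.9, 57.8, 41.7 and 40.4 CPM. Both were highest in library 2, and their ratio was 8.95 ± 0.822. miR-499a-5p had 18.5 ± 2.60 CPM, miR-133b 1.01 ± 0.709 CPM and miR-206 0.796 ± 0.0638 CPM. The heart miRNAs miR-208a-3p and miR-208b-3p had no count.

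Of 11 neuronal and glial miRNAs, 5 were detected and 5 had no count, and the sum of 769 ± 6.51 CPM was almost wholly miR-9-5p. That miRNA, a regulator of neural progenitors, had 735, 748, 737 and 750 CPM. miR-9-3p had 13.9 ± 1.03 CPM, miR-129-5p 7.90 ± 2.27 CPM and miR-219a-5p 3.01 ± 0.618 CPM. miR-124-3p, the most abundant miRNA of neurons, and miR-338-3p had no count.

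The endocrine list held 3 detected miRNAs of 4. miR-7-5p, high in pancreatic islets and pituitary, ranked 20 with 5173 ± 509 CPM. miR-375, the other islet miRNA, had 5.34 ± 1.43 CPM and miR-7-1-3p 5.33 ± 1.30 CPM. miR-7-2-3p had no count. Neither liver entry was detected. miR-122-5p, which dominates hepatocytes, had 0.587 ± 0.196 CPM and miR-122-3p no count. Of 10 pluripotent cell miRNAs, none was detected and 9 had no count. Of 7 miRNAs of ciliated and germ cells, 2 were detected, miR-449c-5p at 19.0 ± 1.75 CPM and miR-449a at 5.22 ± 0.603 CPM. miR-34c-5p had 0.960 ± 0.244 CPM, while miR-34b-5p and miR-34c-3p had no count.

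**Figure D4:**
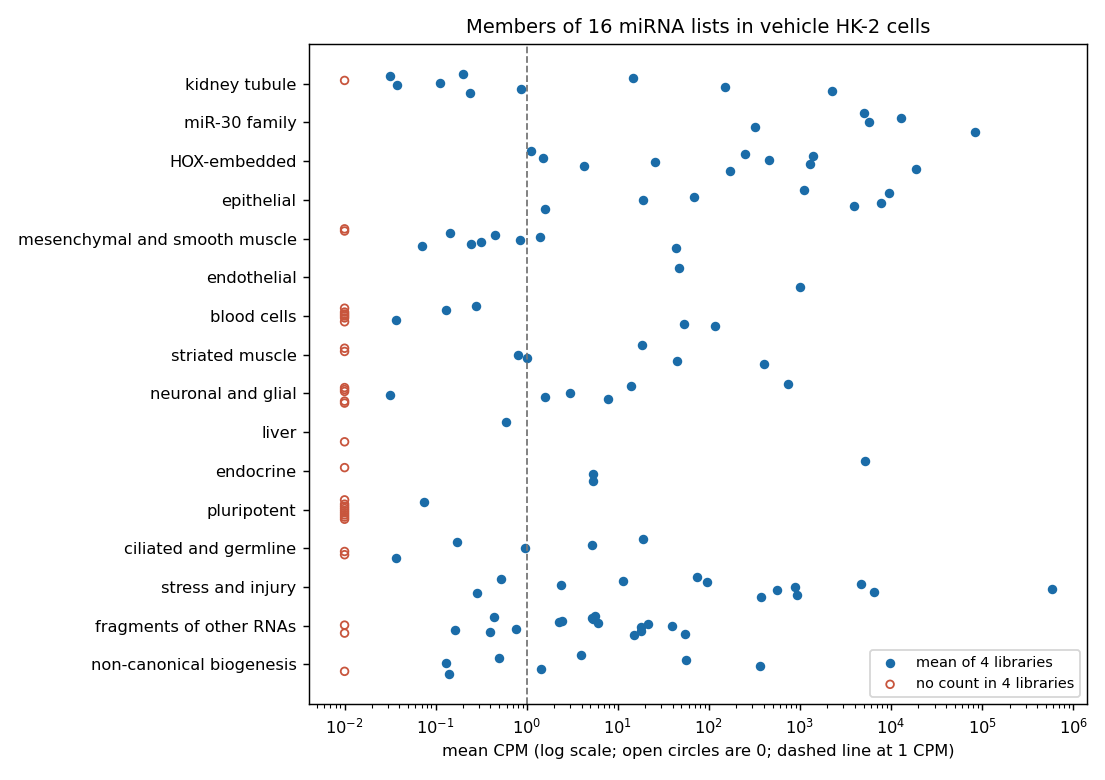
Mean CPM (log axis) of each member of the 16 lists in the 4 vehicle libraries; filled circles are means, open circles are members with no count, and the dashed line marks 1 CPM. The epithelial list lies wholly above the line, with 7 of 7 members detected, while the pluripotent list has 9 of 10 members without a count.

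The stress and injury list, 11 of 13 members detected, was dominated by miR-21-5p. miR-155-5p, an inflammatory miRNA made from the gene MIR155HG, ranked 15 with 5749, 7529, 6762 and 5983 CPM. miR-29a-3p, which targets collagen messages, had 4659 ± 417 CPM, and its ratio to miR-29b-3p was 48.8 ± 3.48. miR-146b-5p, which dampens NF-kappaB signalling, had 938 ± 61.6 CPM. The hypoxia-induced miR-210-3p had 885 ± 90.9 CPM. The p53 target miR-34a-5p had 49.9, 124, 66.6 and 54.2 CPM, highest in library 2. miR-146a-5p had 632, 327, 288 and 245 CPM, highest in library 1.

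Some names are known to overlap other small RNAs. Of 18 such names, 12 were detected and 2 had no count, and together they had 214.9, 205, 220 and 139 CPM in libraries 1 to 4, lowest in library 4. The leaders were miR-1248, which overlaps a small nucleolar RNA, at 54.5 ± 18.9 CPM and miR-3687 at 39.3 ± 5.69 CPM. miR-4485-3p had 21.4 ± 3.76 CPM and miR-3653-3p 18.0 ± 4.04 CPM. Of 8 miRNAs made without Drosha or without Dicer, 3 were detected. miR-320a had 362 ± 67.7 CPM, miR-484 56.6 ± 6.89 CPM and miR-877-5p, a product of a spliced intron, 3.99 ± 0.676 CPM. miR-1226-3p, likewise from an intron, had 1.43 ± 0.448 CPM.

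The abundant miRNAs also shared features of sequence, which the choice of libraries did not use. A U stood first in 32 of 48 mature sequences with a mean of at least 1000 CPM (66.7%). It stood first in 178 of 406 detected ones (43.8%) and in 332 of 1022 with no count (32.5%). G was first in 0 of 48, 26 of 406 (6.40%) and 168 of 1022 (16.4%). The first 2 classes overlap. Argonaute proteins are known to prefer U or A at this position. Weighted by counts, sequences that start with U held 92.9% ± 0.602, and 82.1% ± 0.841 with miR-21-5p left out. The median GC content was 44.5% in the abundant class, 47.6% in the detected class and 52.4% in the class with no count, and 93.8%, 89.4% and 71.7% of the sequences were 21 to 23 bases long.

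The libraries correlated closely across miRNAs, with Pearson's r of log2 CPM between 0.992 and 0.997 over 454 to 477 miRNAs, which share their sequence and are not independent replicates. They differed beyond counting error, since a chi-square of the counts per degree of freedom lay between 35.8 and 187 for the 6 pairs of libraries. Repeat preparations of the same RNA could differ as much, and whether these are such repeats cannot be told from the counts. edgeR's common biological coefficient of variation was 14.6% over 467 miRNAs. Among 253 miRNAs with a mean of at least 100 counts, the median coefficient of variation of CPM was 12.4%, with quartiles of 8.49% and 18.1%, and 11 exceeded 30%.

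The most variable were miR-30b-5p at 54.1%, miR-342-3p at 52.1%, miR-146a-5p at 47.1%, miR-34a-5p at 46.3% and miR-6087 at 37.9%. miR-30b-5p had 189, 582, 271 and 256 CPM in libraries 1 to 4, and miR-342-3p had 12.2, 38.6, 21.8 and 16.4 CPM. miR-6087 had 241, 474, 514 and 262 CPM. Library 2 was highest for miR-30b-5p, miR-342-3p and miR-34a-5p, library 1 for miR-146a-5p and library 3 for miR-6087. The least variable were miR-9-5p at 1.02%, miR-340-3p at 2.03%, miR-421 at 2.35%, miR-126-3p at 2.70% and let-7a-5p at 3.37%.

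Library 2 gave the highest CPM of the 4 for 130 of the 253 miRNAs, and it was the library with the least miR-21-5p. After TMM scaling, which adjusts for a shift shared by most miRNAs, it was highest for 73, library 1 for 57, library 3 for 48 and library 4 for 75. Library 4 was the lowest by CPM for 102. The deviation of a miRNA in a library from its median over the 4 libraries was set against its GC content across 225 miRNAs, which share a library and its depth. Spearman's rho was 0.29, -0.01, 0.28 and -0.49 in libraries 1 to 4, so that no relation was seen in library 2. The part of GC content, or of library 2, in any level above was not tested.

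**Figure D5:**
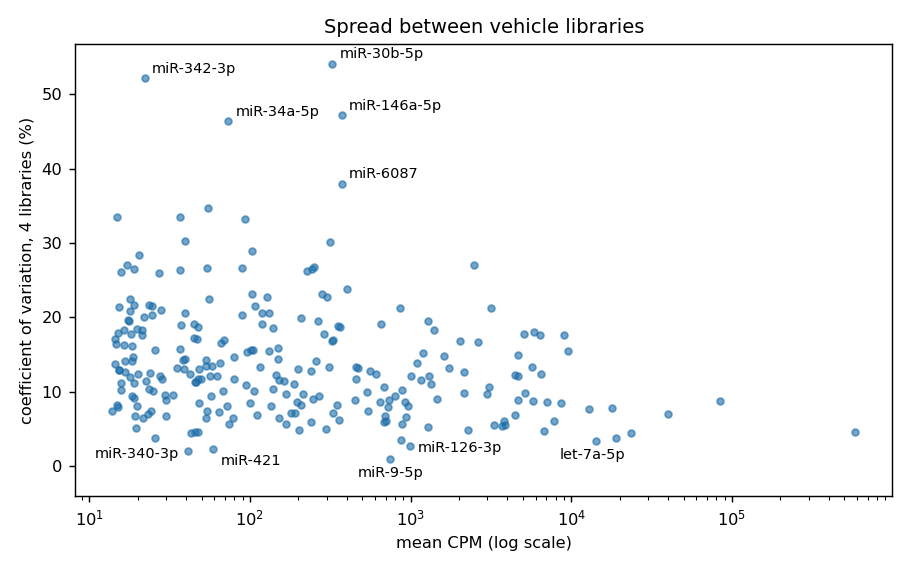
Coefficient of variation of CPM over the 4 vehicle libraries (%) against mean CPM (log axis) for the 253 miRNAs with a mean of at least 100 counts, with the 5 most and 5 least variable named. Most points lie below 30%, and miR-30b-5p is highest at 54.1%.

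Many miRNAs lie inside other genes, and the mRNA libraries of vehicle cells, 4 in number, give the level of those hosts. Their depth was 7041604, 5366260, 4644613 and 4289120 counts. A miRNA level here is the sum of both arms in CPM of the miRNA library, and a host level is CPM of the mRNA library without division by length, so the scales differ and neither host levels nor pairs rank against each other in molecules. Of 96 listed pairs, 20 were set aside because the mature miRNA has other loci and 4 because a row was missing, which left 72. The miRNA was detected in 66, and across these Spearman's rho between miRNA and host level was 0.23, as a description, since pairs share libraries and 55 hosts serve the 66.

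The pairs with the most miRNA relative to host were led by miR-21 and VMP1, a gene of autophagy whose end overlaps the miR-21 locus, with 586655 ± 27227 and 310 ± 12.1 CPM. miR-155 had 6506 ± 808 CPM beside 7.36 ± 0.395 CPM of MIR155HG. The intronic miR-30e had 5285 ± 899 CPM beside 24.5 ± 2.32 CPM of NFYC, a CCAAT-binding subunit. miR-22 had 4692 ± 567 CPM beside 19.1 ± 2.70 CPM of MIR22HG, and miR-31 had 142 ± 26.6 CPM beside 0.342 ± 0.130 CPM of MIR31HG. The 3 noncoding hosts are primary transcripts whose miRNA is cut out during processing, and polyadenylated RNA was selected for the mRNA libraries. Whether either bears on these levels was not tested.

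At the other end stood listed genes that were well expressed and miRNAs that were scarce. miR-199b had 0.591 ± 0.231 CPM, and the gene it lies antisense to, DNM1, which encodes a dynamin, had 318 ± 8.81 CPM. That pair, on opposite strands, is among the 72 but not among the 66 with a detected miRNA. miR-33b had 2.47 ± 0.352 CPM beside 540 ± 15.7 CPM of SREBF1, and miR-33a 19.3 ± 1.84 CPM beside 760 ± 19.3 CPM of SREBF2. These genes encode the master transcription factors of lipid and sterol synthesis. miR-1226 had 3.05 ± 0.959 CPM beside 103 ± 1.45 CPM of DHX30, and miR-877 had 4.48 ± 0.887 CPM beside 111 ± 6.28 CPM of ABCF1. For miR-204 both partners were low, with 0.149 ± 0.172 CPM beside 0.183 ± 0.126 CPM of TRPM3, and miR-211 and its host TRPM1 both had no count. miR-126 had 1044 ± 31.8 CPM beside 66.1 ± 1.47 CPM of EGFL7, a gene best known from endothelial cells.

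The vehicle AGO2 PAR-CLIP list, which the authors made from 2 pooled libraries of other HK-2 cells, holds 56985 clusters of RNA bound by the Argonaute protein AGO2, of which 748 were annotated to 3′ UTRs. Those cells had 24 h of vehicle, against 48 h for the miRNA libraries, and were grown with 4-thiouridine. Its score is the authors' own value per cluster, of unstated unit. At least 15 consecutive bases of a mature miRNA were found in clusters for 46 miRNAs. They were 27 of the 406 detected miRNAs with a sequence (6.65%) and 19 of the 1875 not detected (1.01%). Of the 10 most abundant miRNAs, 4 were among them, namely miR-21-5p, miR-30a-5p, miR-10a-5p and let-7a-5p. The cluster with miR-21-5p had a score of 2370 and that with let-7a-5p 940, a cluster it shares with let-7b-5p and let-7c-5p by sequence. The highest score was not that of the most counted miRNA. It was 9806 for clusters that match miR-1246, which had 15.2 ± 2.71 CPM. Clusters that match miR-4454 reached 3810 and those that match miR-1260b 1800, names that had no count and 0.395 ± 0.270 CPM in the miRNA libraries. miR-1246, miR-4454 and miR-1260b are all on the list of names that overlap other small RNAs. Whether their clusters hold those RNAs or the miRNAs was not tested.

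The clusters were also searched, on the strand given in the list, for the 7 letters complementary to each of the 8 leading seeds. Any of the 8 was present in 1.60% of the 3′ UTR clusters and in 1.17% of all other clusters, both with a median length of 20 bases. For ATAAGCT, which pairs with miR-21-5p, the shares were 0.134% (95% Wilson interval 0.0236% to 0.753%) and 0.140% (0.113% to 0.175%), and the one 3′ UTR cluster lay in DUSP5, a phosphatase of ERK. For ATGTAGC, which pairs with miR-222-3p, they were 0.401% (0.136% to 1.17%) and 0.146% (0.117% to 0.181%), and the 3 genes were CDKN1B, FAM35A and STK24. For ATGAAGG, which pairs with miR-205-5p, they were 0.802% (0.368% to 1.74%) and 0.445% (0.393% to 0.503%). The intervals of the 3′ UTR and other clusters overlapped for each of these 3 sites, and 3 of the 8 sites, those of let-7i-5p, miR-26a-5p and miR-92a-3p, were in none of the 748. A match is a description of the letters in these windows and not evidence of a bound site.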

How the data were processed

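Small RNA of HK-2 cells was sequenced in 4 vehicle libraries, grouped by their labels. The authors deposited raw counts per mature miRNA and per gene, and a score per AGO2 cluster. The submitters' processing notes name build hg19 and, with no roles or settings, Bowtie, TopHat, HTSeq, cutadapt, DESeq2 and CASAVA 1.8.2. Depth was 6664231 to 7888220 miRNA counts, so intervals and floors cover counting error only.

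Counts were divided by the library total (CPM); no groups were compared and no p-values computed. Seeds, positions and hairpins came from RefSeq GRCh38.p14 and were joined by name. The common coefficient of variation came from edgeR 4.0.16 in R 4.3.3 on miRNAs with a mean of at least 10 counts, with an intercept alone; its estimate was tested on simulated counts. Other values came from pandas 2.3.3 and scipy 1.17.1. Alternatives were TMM and DESeq2 1.42.0 size factors, a total without miR-21-5p, other detection rules, seed lengths, cluster distances and pseudocounts, and each library left out.

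The text names the 10 most abundant miRNAs, the 8 leading families and clusters with their leading members, 15 hairpins (10 by counts, 5 nearest to equal arms), up to 4 members per list with the defining ones at 0, and 5 at each end of the coefficient of variation and of the host pairs. Other names were chosen after their values were seen. The libraries, lists and rules were chosen with earlier results of these data known.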

Additional observations from a re-analysis of the deposited data

Results flagged for a closer look

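Of 124 levels, shares and sums examined, 3 had 1 library far from the other 3, by the gap to the nearest library over the whole range; chance flags about 1 in 20 groups. miR-196b-5p stood at 1778 CPM in library 2 and at 1218 to 1300 CPM in the other libraries. miR-133a-3p stood at 57.8 CPM in library 2 and at 39.9 to 41.7 CPM in the others. The summed pluripotent list stood at 0.297 CPM in library 3 and at 0 in the others, which is 2 counts of miR-372-3p.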

How the results depend on the processing

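No paired analysis was possible because only 1 group of libraries was described and no groups were compared. With miR-21-5p taken out of the library total, the other 9 of the 10 most abundant miRNAs held 55.5% of the counts, the other 7 leading seed families 62.4%, the leading clusters 15.6% and the kidney tubule list 5906 CPM. All of these rise by construction, since the total is smaller. The number of miRNAs detected was 272 with a mean of at least 10 CPM, 762 with at least 1 count in every library and 1406 with a count in any library. The 8 leading clusters held 15.1% with hairpins joined within 50 kb, 6.02% within 3 kb and 8.72% with shared mature counts split evenly over hairpins. Spearman's rho of miRNA and host level was 0.34 over all 72 pairs, the antisense pair of miR-199b and DNM1 included. With each library left out in turn, edgeR's common coefficient of variation ranged from 13.2% to 16.7%, highest without library 3, and the count of detected miRNAs from 464 to 481. The share of the 10 most abundant ranged from 81.2% to 82.2%, of the leading families from 84.1% to 84.8% and of the leading clusters from 6.27% to 6.58%. TMM and DESeq2 scaling moved none of the shares and levels recomputed under them by more than the spread between libraries. For let-7g a pseudocount of 5 lowered the log2 arm ratio to 12.98; with a pseudocount of 0, hairpins with an arm at 0 in a library have no value. The depth limits miRNAs near 1 CPM, which stand for only a few counts in a library.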
